A study of Mus musculus with 6 samples.

Results

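The CCN family and the targets of the coactivator YAP were followed here through 10 genes in mouse 3T3 fibroblasts: the 5 CCN genes Ctgf, Cyr61, Nov, Wisp1 and Wisp2, the YAP target genes Ankrd1 and Amotl2, and the pathway genes Yap1, Tead1 and Lats2. They were found by gene name among the non-control probes of the arrays, which gave 14 probes of 55681 in all, and 10 gene names of 35527. 3T3 is an established line of mouse embryonic fibroblasts. Cells had received either GapmeR Ntep or GapmeR control, in both cases at 50 nM for 48 h, with no other agent or genetic change named for either group. A GapmeR is a short antisense strand with a DNA core, which recruits RNase H against a chosen RNA, here the long non-coding RNA Ntep. There were 3 independent experiments, each with 1 array of each GapmeR, so 6 Agilent arrays in 1 color stand behind every value. All 6 lay on 1 slide, and all 6 held RNA of this cell line alone. Signals are intensities in arbitrary units, quantile normalised between arrays, with values under 20 set to a floor of 20. Log2 signals were compared with limma for every probe whose mean reached 50 in either group, and p-values were adjusted over all of these tested probes.

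CCN proteins are secreted, cysteine-rich matricellular proteins through which fibroblasts shape adhesion and matrix. Ctgf and Cyr61 are the classic direct targets of YAP and its paralog TAZ, which enter the nucleus when the LATS kinases of the Hippo pathway are inactive and there bind the TEAD factors on DNA. Nuclear YAP is favoured by spread cells, stiff substrate and serum, and is restrained by cell contact, and both Amotl2 and Lats2 are targets that act back on YAP as inhibitors.

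TEAD factors recognise the letters CATTCC. RefSeq promoter windows of 300 bases (250 before to 50 after the start, GRCm38.p6) were matched to 5 of the 10 genes, giving 6 windows because Lats2 has 2. No window was available for Ctgf, Nov, Wisp1, Wisp2 and Tead1. CATTCC was present on either strand in 5 of these 6 windows and in 14.7% of all 32851 windows. The genes had been picked as CCN or YAP pathway genes, so this share is a description and no test. The AP-1 letters TGANTCA and the CArG box, the site of serum response factor, were in none of the 6, against 7.81% and 1.63% of all windows. The 200 bases before the start are shown for the 3 target genes with a match there, whose signals across the 6 arrays correlated at 0.64 to 0.96 with each other, with CATTCC or its reverse complement GGAATG in capitals. The stretches are chr3:145649986-145650185, chr19:36119845-36120044 and chr9:102717604-102717803 (GRCm38.p6), on the minus, minus and plus strand.
Cyr61: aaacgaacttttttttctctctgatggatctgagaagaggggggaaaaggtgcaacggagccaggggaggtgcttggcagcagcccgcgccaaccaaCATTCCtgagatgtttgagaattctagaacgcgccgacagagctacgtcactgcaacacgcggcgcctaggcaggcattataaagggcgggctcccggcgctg
Ankrd1: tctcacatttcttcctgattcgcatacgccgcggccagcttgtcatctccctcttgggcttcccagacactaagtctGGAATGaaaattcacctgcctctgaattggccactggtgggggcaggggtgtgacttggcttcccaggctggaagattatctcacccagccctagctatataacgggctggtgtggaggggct
Amotl2: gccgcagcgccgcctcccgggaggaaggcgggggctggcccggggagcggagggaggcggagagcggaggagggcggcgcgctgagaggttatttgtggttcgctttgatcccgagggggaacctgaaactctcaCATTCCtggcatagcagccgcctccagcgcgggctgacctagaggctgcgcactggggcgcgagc
The match began 103 bases before the start of Cyr61, 123 before that of Ankrd1 and 65 before that of Amotl2. Ankrd1 held another 210 bases before its start, Yap1 held one 141 before, and the first Lats2 window held one just after the start. Such a match describes the letters only and does not show binding.

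The arrays were checked first against their labels, since a GapmeR should lower its own target. The Ntep probe (A630089N07Rik, chr16:98283712-98283771, mm9) read 472, 91.5 and 226 in experiments 1, 2 and 3 where the label was GapmeR Ntep, and 271, 272 and 361 where it was GapmeR control. Values are given in this order of experiments throughout. Ntep was thus higher than its control in experiment 1, against the label, and lower in experiments 2 and 3. The mean log2 difference, Ntep minus control as everywhere below, was -0.48 ± 0.58 (SE, limma adjusted p = 0.632, exact permutation p = 0.7, where 0.1 is the smallest that 3 against 3 arrays allow). Without experiment 1 it was -1.12. All results are therefore given by label, and those of the YAP targets also without experiment 1. Most fibroblast markers were present, with the summed signal of 8 genes at 398201 to 513564 on the arrays labelled GapmeR Ntep and 588366 to 654882 on the controls. Of the 8, Lum was at the floor of 20 on every array but the third control, where it read 92.8. Among 3 leukocyte markers the sum was 10620 to 16832 against 4487 to 6445, which came mostly from Cd68 (limma adjusted p = 0.0287). Csf1r, another of the 3, read 4901, 2227 and 1196 with GapmeR Ntep and 1403, 142 and 86.7 with control (3.19 ± 1.12, limma adjusted p = 0.151), and the first control stood above the others. That was its brightest probe. A dimmer Csf1r probe, well above background on every array, gave only 0.44 (limma adjusted p = 0.267), and the dimmest was not tested. The muscle gene Myog read 20, 90.6 and 39.5 against 149, 514 and 424 without overlap (-2.94 ± 0.70, limma adjusted p = 0.0661). Ptprc, the defining leukocyte gene, was at the floor of 20 on 5 arrays and at 39.5 on the other, and the part of these markers in the values below was not tested.

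In the unpaired fit, none of the 9 genes that could be tested passed a limit for a change between the labels. In the fit that pairs the arrays of an experiment as a block, 1 of them, Wisp2, passed both limits. In that blocked fit 4292 of all 30990 tested probes passed after adjustment, and 3471 at a fold of 2 with an unadjusted p under 0.01. Of the 13 member probes bright enough to test, 11 were well above background on every array and 0 had a saturated spot. At an adjusted p under 0.05 there were 0 genes of 9, where 5.3% of all 30990 tested probes passed, and at a fold of 2 with an unadjusted p under 0.01 there were again 0, where 8.13% passed. By limma 0 of the brightest probes had an unadjusted p under 0.05 either, and the methods' t-test, a plain test on the same log2 values, called 0 at both limits. The median log2 difference of the 9 genes was 0.21, against 0.06 for all tested probes, and its sign depended on single arrays. It was -0.14 without the first array labelled GapmeR Ntep, -0.06 without the second control and -0.09 without the third, 0.37 and 0.39 without the third and the second array labelled GapmeR Ntep, and 0.68 without the first control. Without normalization between arrays it was 0.08.

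**Figure D1:**
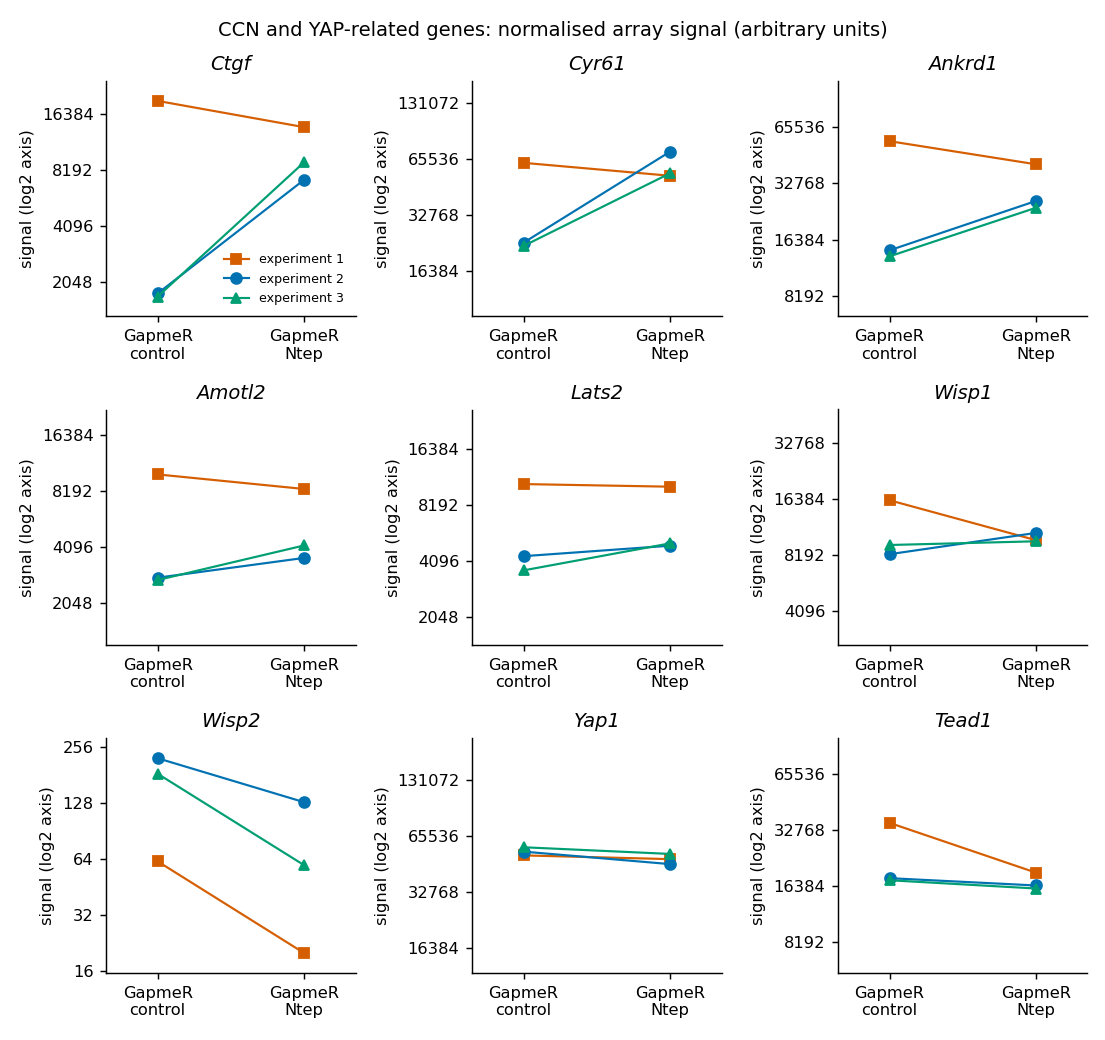
Normalised signal (log2 axis, arbitrary units) of the brightest probe of 9 genes on each array, by GapmeR label, with a line joining the 2 arrays of an experiment. For Ctgf the control array of experiment 1 sits at 19334, while the other 2 controls sit at 1787 and 1719.

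Ctgf, the CCN2 gene, encodes connective tissue growth factor, a driver of matrix production. Its probe (chr10:24318281-24318340, mm9) read 13970, 7298 and 9065 on the arrays labelled GapmeR Ntep and 19334, 1787 and 1719 on the controls. The control of experiment 1 was the highest of all 6 arrays and the other controls were the lowest, so the groups overlapped. The mean log2 difference was 1.32 ± 0.97 (95% confidence interval -1.06 to 3.70, limma adjusted p = 0.444, exact permutation p = 0.4). Within experiments it was -0.47, 2.03 and 2.40, that is, lower in the first and over 4-fold higher in the others. On the log2 scale the arrays labelled GapmeR Ntep had an SD of 0.48 and the controls a larger one, and only 0.958% of all tested probes had controls that spread as widely.

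Cyr61, the CCN1 gene, encodes an adhesive protein that binds integrins. Its probe (chr3:145310187-145310246, mm9) read 53248, 71813 and 54954 with GapmeR Ntep and 62478, 23278 and 22361 with control. Again the first control array lay among the arrays labelled GapmeR Ntep, and the other 2 lay below all of them. The log2 difference was 0.90 ± 0.43 (95% confidence interval -0.16 to 1.95, limma adjusted p = 0.261, exact permutation p = 0.3), from -0.23, 1.63 and 1.30 within experiments.

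Of the remaining CCN genes, Nov, the CCN3 gene, was at the floor of 20 on all 6 arrays and was well above background on none, so it was not tested. Wisp1, the CCN4 gene, named for its induction by Wnt1, read 9818, 10751 and 9690 with GapmeR Ntep and 16096, 8260 and 9255 with control on its brighter probe (chr15:66754637-66754696, mm9). The first control was the highest array here too and the second the lowest, so the groups overlapped, and the log2 difference was -0.09 (limma adjusted p = 0.868), with -0.71, 0.38 and 0.07 by experiment. The second Wisp1 probe gave -0.23 (limma adjusted p = 0.559), with -0.57, 0.20 and -0.32.

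Wisp2, the CCN5 gene, encodes the member that lacks the C-terminal domain of the other CCN proteins. Its probe (chr2:163658717-163658776, mm9) read 20, 129 and 59.3 with GapmeR Ntep and 62.2, 223 and 184 with control. Every array labelled GapmeR Ntep was below the control of its own experiment, although the groups overlapped. The log2 difference was -1.35 ± 0.80 (limma adjusted p = 0.346), and -1.64, -0.78 and -1.63 within experiments. With the experiments as a block, limma's adjusted p was 0.0435, and it was 0.0988 in the same blocked fit once the prior for the variance was taken from all probes, dim ones included. These are dim signals, well above background on 3 of 3 control arrays and on 1 of 3 labelled GapmeR Ntep, and the lowest is the floor itself. With normexp background correction the difference shrank to -0.47.

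**Figure D2:**
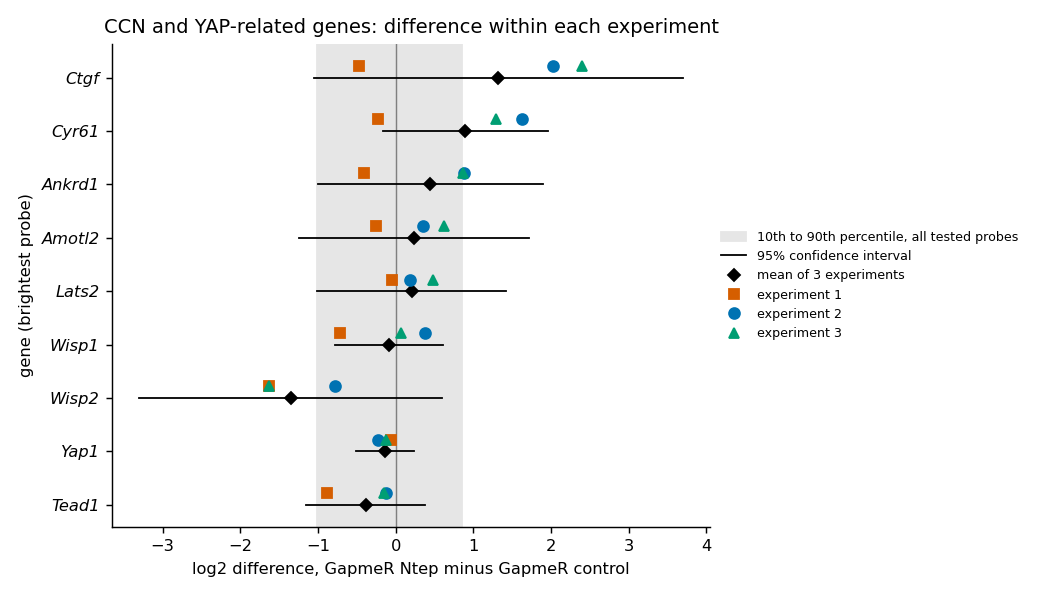
Log2 difference of GapmeR Ntep minus GapmeR control (horizontal axis) for 9 genes, brightest probe each. Each experiment has 1 symbol, and a diamond marks the mean. The line is the 95% confidence interval of that mean in the unpaired fit. The interval includes differences in level between experiments, which the symbols leave out. The grey band spans the 10th to 90th percentile of all tested probes, from -1.02 to 0.85. For Ctgf the squares of experiment 1 lie at -0.47 and the other experiments at 2.03 and 2.40, while Wisp2 is below 0 in all 3.

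Ankrd1 encodes a stress-responsive ankyrin repeat protein of muscle and fibroblasts. It read 41529, 26417 and 24286 with GapmeR Ntep and 55294, 14338 and 13312 with control (chr19:36186809-36186868, mm9). The first control array was once more the highest of the 6 and the others the lowest. The log2 difference was 0.45 ± 0.59 (limma adjusted p = 0.667), from -0.41, 0.88 and 0.87 within experiments.

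Amotl2 encodes an angiomotin-like scaffold that holds YAP in the cytoplasm. Its values were 8364, 3568 and 4163 with GapmeR Ntep and 10016, 2793 and 2714 with control (chr9:102635025-102635084, mm9). Both arrays of experiment 1 stood above the other 4. The log2 difference was 0.24 ± 0.61 (limma adjusted p = 0.833), with -0.26, 0.35 and 0.62 by experiment.

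Lats2, the kinase that phosphorylates YAP, had the same order of arrays. Its brighter probe (chr14:58308807-58308866, mm9) read 10258, 4946 and 5091 with GapmeR Ntep and 10596, 4345 and 3645 with control. Here too both arrays of experiment 1 were the highest. The log2 difference was 0.21 ± 0.50 (limma adjusted p = 0.820), from -0.05, 0.19 and 0.48. The second probe (364, 521 and 631 against 643, 312 and 361) gave 0.24 (limma adjusted p = 0.694), with -0.82, 0.74 and 0.81, and on it the first array labelled GapmeR Ntep was not among the high ones.

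Yap1 itself had the smallest standard error of the 9 genes. It read 48969, 46046 and 52221 with GapmeR Ntep and 51289, 53736 and 56718 with control (chr9:7932025-7932084, mm9), and the groups overlapped. The log2 difference was -0.14 ± 0.15 (95% confidence interval -0.51 to 0.24, limma adjusted p = 0.610), with -0.07, -0.22 and -0.12 by experiment. Scaling to the 75th percentile turned it to 0.072, while it moved the median of all tested probes up by 0.16.

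Tead1, the DNA-binding partner of YAP, was measured by 3 probes that differed in sign. The brightest (chr7:120049844-120049903, mm9) read 19342, 16515 and 15908 with GapmeR Ntep and 35819, 18076 and 17619 with control, and gave -0.39 ± 0.32 (limma adjusted p = 0.484), lower in all 3 experiments. The second gave 0.33 (limma adjusted p = 0.759), from -0.32, 0.61 and 0.72. The third gave -0.76 (limma adjusted p = 0.163) without overlap of the groups, as for 32.1% of all tested probes and, with GapmeR Ntep lower, 15.1%, but was well above background on 1 array labelled GapmeR Ntep and 2 controls. Where these probes lie in the exons of their genes was not determined, since no mm9 annotation was used here.

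By their brightest probes, 6 of the 9 genes (Ctgf, Cyr61, Wisp1, Ankrd1, Amotl2 and Lats2) were lower with GapmeR Ntep in experiment 1 and higher in experiments 2 and 3, a pattern held by 8.42% of all tested probes. This description was chosen after the values had been seen. Wisp2, Yap1 and Tead1 were lower in all 3 experiments, as were 26.7% of all tested probes, while 59% kept either sign. The first control array exceeded both other controls at least 2-fold for 5 of the 9 genes (Ctgf, Cyr61, Ankrd1, Amotl2 and Lats2), as it did for 4.89% of all tested probes. For the first array labelled GapmeR Ntep the count was 2 (Amotl2 and Lats2), against 5.09% of all tested probes. The first control was 10.8-fold and 11.2-fold above the other controls for Ctgf, 2.68-fold and 2.79-fold for Cyr61, and 3.86-fold and 4.15-fold for Ankrd1. Controls 2 and 3 differed from each other by 1.19-fold at most over these 5 genes. In such cultures, fewer cells of a kind and less RNA per cell cannot be told apart.

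Experiment 1 gave each of these targets its lowest difference, so a mean without it is higher by construction. Without it, Ctgf had a log2 difference of 2.21 ± 0.17 (limma adjusted p = 0.0502), Cyr61 one of 1.46 ± 0.19 (limma adjusted p = 0.0581) and Ankrd1 one of 0.87 ± 0.14 (limma adjusted p = 0.0635), with 2 arrays per label. Ctgf and Cyr61 then passed the limit of a 2-fold change with an unadjusted p under 0.01, as did 2640 of all 30990 tested probes. After adjustment none of the 9 genes passed, nor did any of the 30990 probes. Omission of the first control alone gave 2.47 for Ctgf (limma adjusted p = 0.0577), 1.38 for Cyr61 (limma adjusted p = 0.0619) and 1.11 for Ankrd1 (limma adjusted p = 0.09998). Amotl2 and the brighter Lats2 probe changed sign with 1 array left out, from -0.14 to 0.86 and from -0.14 to 0.68.

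**Figure D3:**
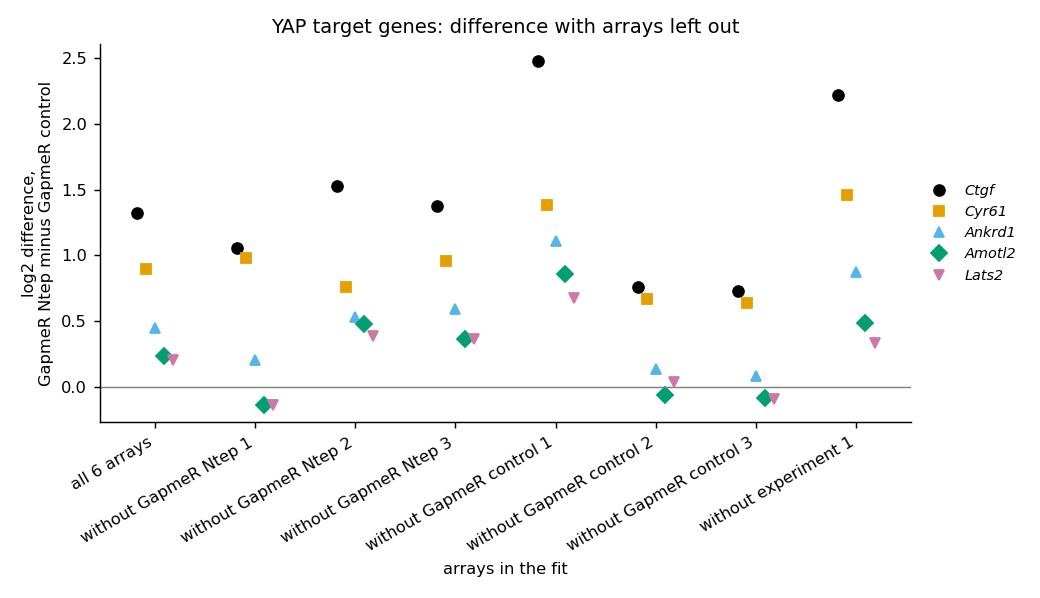
Log2 difference of GapmeR Ntep minus GapmeR control (vertical axis) for 5 YAP target genes with all 6 arrays, with each array left out in turn and without experiment 1 (horizontal axis). Ctgf lies between 0.73 and 2.47, and the highest values come without the first control array, except for Cyr61, which is highest without experiment 1, at 1.46.

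Signals of the 5 targets correlated positively across the 6 arrays, which is a description over arrays that share 3 experiments. Pearson's r of the log2 signals ran from 0.61 to 0.99 over their 10 pairs, and was 0.99 for Amotl2 with Lats2, 0.97 for Ctgf with Ankrd1, 0.96 for Ankrd1 with Amotl2 and 0.90 for Ctgf with Cyr61. Wisp2 ran the other way, at -0.82 with each of Ctgf, Amotl2 and Lats2, and Yap1 was at -0.63 with Ctgf and -0.84 with Cyr61. Yap1 itself varied little, with a log2 SD of 0.07 on the controls and 0.09 with GapmeR Ntep. Correlation was taken over 22648 probes well above background on all arrays, and only genes with a plain symbol of letters and digits were ranked. Among these, the probes most like Ctgf belonged to Grk5 (0.999), Acot10 (0.994), Etv4 (0.994), Nadk (0.992) and Me1 (0.990). Their log2 differences ran from 0.20 for Grk5 to 0.81 for Etv4. Those most like Cyr61 belonged to Nxph4 (0.994), Tmem174 (0.990), Pik3r5 (0.989), Tubb5 (0.987) and Syngr4 (0.985). Picked as the highest of so many correlations over only 6 arrays, these values are a description, and shared regulation was not tested.

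The paralogs of the members were next compared. Wwtr1, which encodes TAZ, read 10363, 8977 and 9410 with GapmeR Ntep and 8980, 7620 and 7548 with control, with a log2 difference of 0.25 (limma adjusted p = 0.395). Lats1, the paralog of Lats2, read 348, 178 and 403 against 144, 77.8 and 93.1. Every array labelled GapmeR Ntep of Lats1 was above every control, and the log2 difference was 1.52 ± 0.39 (limma adjusted p = 0.0776, and 0.0393 with the experiments as a block). Tead3 read 111, 231 and 135 against 466, 358 and 486, and also did not overlap, at -1.52 ± 0.31 (limma adjusted p = 0.0513). Tead2 gave -0.31 (limma adjusted p = 0.438) and Tead4 0.62 (limma adjusted p = 0.553).

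A wider list of 22 YAP and TAZ target genes, which includes 5 of the members, was on the array in full, and 20 were bright enough to test. Of these, 12 had a higher and 8 a lower mean with GapmeR Ntep, with a median log2 difference of 0.22 against 0.06 for all tested probes. That median was 0.08 without the third control, 0.10 without the first array labelled GapmeR Ntep, 0.11 without the second control, 0.37 without the third array labelled GapmeR Ntep, 0.70 without the first control and 0.10 without normalization between arrays. After adjustment 0 rose and 3 fell, where 2.09% and 3.21% of all tested probes did. The 3 were Rbms3, an RNA-binding protein gene (-2.78 ± 0.40, limma adjusted p = 0.0287), Axl, a receptor tyrosine kinase gene (-1.25 ± 0.17, limma adjusted p = 0.0274), and Asap1, an Arf GTPase-activating protein gene (-1.01 ± 0.16, limma adjusted p = 0.0330). With scaling to the 75th percentile Asap1 passed neither limit (-0.98, limma adjusted p = 0.0536), and Rbms3 did not pass after adjustment without the filter on dim probes (limma adjusted p = 0.0792) or by the methods' t-test (adjusted p = 0.0802). Axl read 9368, 11009 and 10325 with GapmeR Ntep and 26194, 25024 and 21636 with control, without overlap. A dimmer Rbms3 probe also fell without overlap (-1.93, limma adjusted p = 0.0347). It read 20, 40.7 and 20 with GapmeR Ntep and 109, 96.1 and 86.6 with control, and was well above background on the controls only. The dimmest Rbms3 probe was above the floor on 1 array only, with GapmeR Ntep in experiment 1. For Ccdc80, also of the list, a dimmer probe passed after adjustment (-1.19, limma adjusted p = 0.0411). Its brighter probe did not (-0.34, limma adjusted p = 0.327). Tgfb2, which encodes a TGF-beta ligand, gave -1.06 (limma adjusted p = 0.0556) and passed at the fold limit. The growth arrest gene Gadd45a gave 1.47 (limma adjusted p = 0.0912), the phosphatase gene Ptpn14 1.11 (limma adjusted p = 0.287) and the forkhead factor gene Foxf2 1.06 (limma adjusted p = 0.159). With the experiments as a block, Gadd45a, Foxf2 and Tgfb2 passed too (limma adjusted p = 0.0354, 0.0383 and 0.0398). With the prior for the variance taken from all probes, that blocked fit kept Asap1 (limma adjusted p = 0.0472) as the only call of the list.

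Among 35 genes of the Hippo pathway itself, 33 were tested, 16 with a higher and 17 with a lower mean, at a median of -0.04. The median was 0.12 with scaling to the 75th percentile, which raised that of all tested probes by 0.16, and ran from -0.09 to 0.16 with 1 array left out, the highest without the first control. After adjustment 1 fell and 0 rose, where 3.21% and 2.09% of all tested probes did, so the share that fell was near the background. The gene was Fat4, an atypical cadherin gene, at -3.45 ± 0.50 (limma adjusted p = 0.0287), which was above the floor on 1 of the 3 arrays labelled GapmeR Ntep and read 301, 380 and 306 on the controls. At the fold limit Lats1 rose, where 3.08% of all tested probes did, and Fat4, Tead3 and the kinase gene Stk3 (-1.98, limma adjusted p = 0.0873) fell, where 5.06% did. Amotl1, a paralog of Amotl2, gave 1.70 (limma adjusted p = 0.239), with 1.46, 1.71 and 1.95 within experiments. The scaffold gene Rassf1 gave 1.24 (limma adjusted p = 0.0939), Mob1b, whose product activates the LATS kinases, 1.11 (limma adjusted p = 0.123) and the kinase gene Taok3 -0.83 (limma adjusted p = 0.0706). A dimmer Taok3 probe passed after adjustment in the unpaired fit (-1.33, limma adjusted p = 0.0448). With the block, Amotl1, Rassf1, Mob1b and Taok3 passed (limma adjusted p = 0.0310, 0.0350, 0.0391 and 0.0426). None of these 4 passed in the blocked fit with the prior from all probes (limma adjusted p = 0.0528, 0.0699, 0.0777 and 0.0598), nor did Lats1 (0.0922) or Fat4 (0.0707). In that fit 1 other gene of the list passed, with a higher mean, where 1034 of all 30990 tested probes did. After adjustment no gene of either list passed once any 1 control array was omitted, when 111, 0 and 3 probes in all passed without control 1, 2 and 3.

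**Figure D4:**
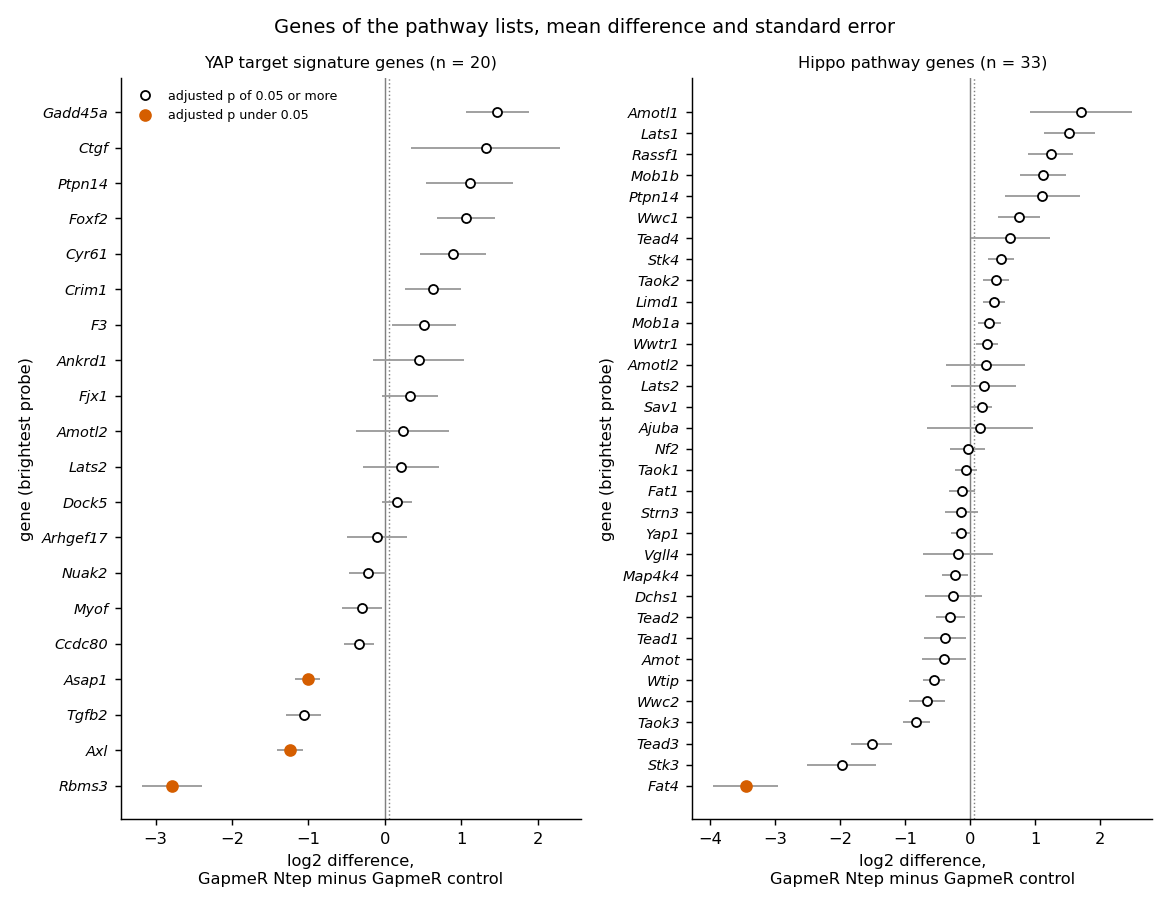
Mean log2 difference of GapmeR Ntep minus GapmeR control (horizontal axis) with its standard error for 20 YAP target signature genes and 33 Hippo pathway genes, brightest probe each; filled points have an adjusted p under 0.05 and the dotted line is the median of all tested probes, 0.06. The filled points are Rbms3, Axl and Asap1 on the left and Fat4 on the right, all below 0.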

How the data were processed

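The authors hybridised RNA of 6 cultures of 3T3 cells to Agilent mouse arrays and deposited background-subtracted intensities per array from Feature Extraction 10.7.3.1, with spot flags, and a table of quantile normalized intensities with a floor of 20. The deposited flags (other columns) mark outlier, saturated and background spots. Replicate spots were then averaged, the arrays quantile normalized, values under 20 set to 20 and log2 values compared with limma 3.58.1 (lmFit, eBayes; R 4.3.3, data.table, version 1.17.8), unpaired and two-sided. Tests covered the 30990 probes whose mean reached 50 in either group, with Benjamini-Hochberg adjustment over all of them. The brightest probe stands for a gene. The members and lists were chosen with earlier results of these data known.

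The study's sheet of culture days pairs the arrays by experiment. Residuals of paired arrays correlated at 0.466, 0.300 and 0.254, and a fit with the experiments as a block was therefore run. Between 43.7% and 53.3% of probes were well above background, and only 3 arrays per label limit the precision. Named were all members with every probe, 5 paralogs, list genes past a limit with the 5 next largest differences, and the 5 genes most like Ctgf and Cyr61. Mob1b was found by an older symbol. The unpaired fit was tested on simulated data with independent noise and no pairing of arrays. The other steps were not tested in that way. Settings tried as alternatives concern normalization, background, floor, filters, outlier spots, variance model, array weights, the methods' t-test and the omission of arrays.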

Additional observations from a re-analysis of the deposited data

How the results depend on the processing

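With all arrays, no member passed either limit under any scaling, background correction, floor or filter on dim probes tried, nor with outlier spots left out, limma-trend or the methods' t-test. Members passed with array weights and the replicate block and, at the fold limit only, without experiment 1 and without the first control array. Calls after adjustment numbered 1642 for all probes, 0 for the members, 3 for the YAP target list and 1 for the Hippo list, and at the fold limit 2520, 0, 4 and 4. The block gave 4292, 1, 6 and 7 after adjustment and 1, 7 and 7 for the 3 lists at the fold limit, with Wisp2 as the member. Moderation over all probes, added after the data were seen, cut the blocked counts to 1034 probes, 0 members, 1 and 1, and to 1659 probes at the fold limit, and without the block left 2 Hippo genes at the fold limit. Array weights gave 10260, 3, 11 and 13, and 4506, 3, 8 and 8, with Ctgf, Cyr61 and Wisp2 as the members. Omission of experiment 1, also added afterwards, gave 0 calls after adjustment for all probes and each list, with and without the block. In both fits 2 members passed at the fold limit, where 2640 probes in all passed without the block and 2524 with it. For all probes after adjustment, no normalization gave 962, normexp 2557, no filter on dim probes 564, the filter on background flags 2884, limma-trend 2707 and the t-test 285, and at the fold limit the t-test gave 1457. For the Hippo list after adjustment, any probe of a gene, a mean of 100 and outlier removal gave 2, normexp, background flags and limma-trend 3, and no filter and the t-test 0, and at the fold limit normexp and no filter gave 2 and the t-test 1.

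With 1 array left out, calls after adjustment ran from 0 to 1327 for all probes, 0 to 3 for the YAP list and 0 to 2 for the Hippo list, and stayed at 0 for the members. At the fold limit they ran from 1544 to 3081, 3 to 6, 1 to 5 and, for the members, 0 to 2. The 2 were Ctgf and Cyr61 without the first control, where 2605 probes in all passed. The Ntep probe ran from -1.06 to 0.13, Amotl2 from -0.14 to 0.86, the brighter Lats2 probe from -0.14 to 0.68, the brighter Wisp1 probe from -0.28 to 0.20 and the second Tead1 probe from -0.065 to 0.98. Signs also turned for Yap1 with 75th percentile scaling (0.072) and for the brighter Wisp1 probe with array weights (0.11) and without experiment 1 (0.22, with and without the block). The causes were not tested. Signals near the floor of 20, such as those of Wisp2, Fat4 and Nov, give no reliable size.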
